A study of Mus musculus with 6 samples.

Results

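The major urinary protein (Mup) family was examined in liver RNA of 6 mice. Its members were the genes of the deposited count table whose symbol begins with Mup followed by a number or by -ps, which gave 49 of 55450 genes. Of these, 22 carried a number and were annotated as protein-coding, and 27 were pseudogenes. The mice were 10 weeks old and of the strain given as C57BL/J. The 3 knockout (KO) mice were LKB1 fl/fl, with loxP sites around LKB1, the kinase gene whose symbol is Stk11, and the 3 wild-type (WT) mice had normal LKB1. Both groups received AAV8 Cre, a serotype of adeno-associated virus that delivers the recombinase Cre, at 6 weeks of age, so the controls carried the virus and Cre too. The promoter that drove Cre is not given in the sources used here. RNA was taken from the left liver lobe 4 weeks later, with 1 library per mouse, and the series title names metabolic reprogramming of the liver as its subject.

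Major urinary proteins are small secreted carriers of the lipocalin fold. Hepatocytes release them into the blood, the kidney passes them into the urine, and there they bind volatile pheromones and act as scent signals themselves. In mouse liver their genes are known to be much more active in males than in females, and pulsatile growth hormone acting through STAT5 is a main regulator of that difference. Most of the genes form 1 tandem array, in which near-identical central copies lie between more divergent peripheral genes. Here the peripheral group held Mup3, Mup4, Mup5, Mup6, Mup20 and Mup21, and the central group held the other 16 numbered genes.

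The promoters show how alike the copies are. Of the 22 numbered genes, 14 had a promoter in the RefSeq table (GRCm38.p6), and 13 of the 14 contained the letters TATATAA within 250 bases before to 50 bases after the annotated start, on either strand, against 3.24% of 32851 promoters of that length. The 100 bases before this box and the box itself, in capitals, are printed for 3 central and 3 peripheral genes that stand for the different patterns of counts described below, 5′ to 3′ on the minus strand of chromosome 4.
Mup3 (chr4:62087322-62087428): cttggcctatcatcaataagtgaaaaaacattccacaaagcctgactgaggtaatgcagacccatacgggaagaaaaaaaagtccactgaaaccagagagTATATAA
Mup21 (chr4:62150843-62150949): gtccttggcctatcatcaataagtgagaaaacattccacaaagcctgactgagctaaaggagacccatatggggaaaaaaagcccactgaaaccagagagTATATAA
Mup4 (chr4:59960690-59960796): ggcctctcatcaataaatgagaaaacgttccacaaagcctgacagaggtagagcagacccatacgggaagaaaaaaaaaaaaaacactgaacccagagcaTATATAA
Mup15 (chr4:61439723-61439829): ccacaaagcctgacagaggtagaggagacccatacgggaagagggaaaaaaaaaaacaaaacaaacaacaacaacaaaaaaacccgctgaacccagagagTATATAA
Mup18 (chr4:61674116-61674222): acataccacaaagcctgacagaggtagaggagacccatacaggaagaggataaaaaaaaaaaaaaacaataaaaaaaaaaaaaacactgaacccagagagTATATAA
Mup10 (chr4:60582179-60582285): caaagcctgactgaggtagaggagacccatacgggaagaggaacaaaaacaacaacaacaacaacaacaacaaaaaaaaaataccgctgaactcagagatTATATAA
Over the bases that could be aligned with the Mup15 window, Mup18 was identical at 93.1% of 101 bases and Mup10 at 94.1% of 102 bases, whereas the window of Mup19 was identical at all 107 bases. The peripheral windows aligned over fewer bases, because the A-rich stretch before the box differs in length, and Mup3 was identical at 90.5% of 74 bases and Mup4 at 96.2% of 78 bases. The letters TTCNNNGAA, a pattern bound by STAT5, were found on neither strand in any of the 14 promoters, against 8.3% of all promoters, which says only that these letters are not in this window.

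The likeness of the transcripts limits what single genes can show. For each member, every stretch of 76 bases, the read length, was taken from its GENCODE M21 transcripts and looked up in all other genes. Central genes had a median of 20.32% of such stretches to themselves, with a highest value of 42.3% for Mup1. Mup15, Mup19 and Mup22 had none, so all of their counts rest on how the counting program divided shared reads. Peripheral genes were mostly their own, at 94.74% for Mup3, 90.03% for Mup21 and 56.62% for Mup20, and 0 of the stretches of these 3 genes occurred in a central gene. The stretches that Mup20 shared made up 83.3% of those of the pseudogene Mup-ps19, so counts of the latter also rest on that division. All members but Mup-ps22, which lies on chromosome 11, fall within 2.19 Mb of chromosome 4, from 59956804 to 62150863 in GRCm38. Because sums over the family do not depend on the division among its members, they are given first.

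**Figure D1:**
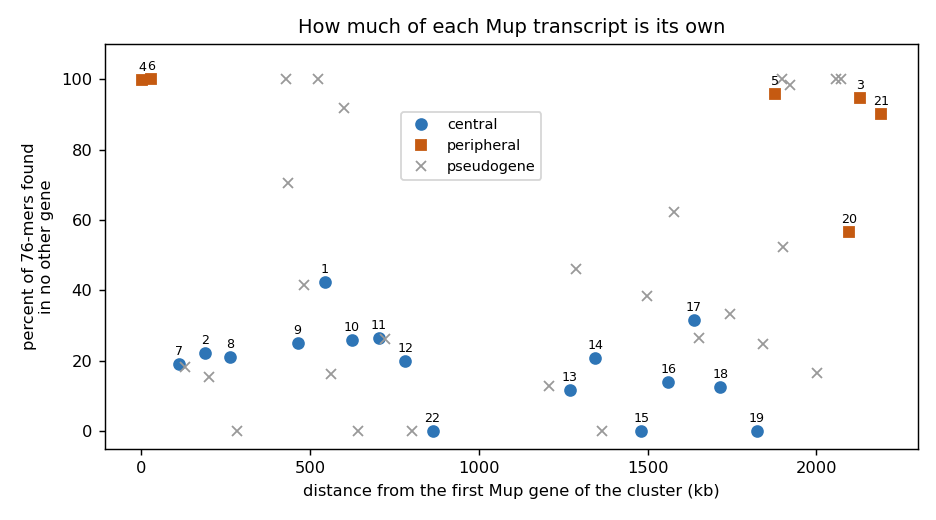
Percent of the 76-base stretches of each chromosome 4 member that occur in no other annotated gene (vertical axis) against its distance in kb from the first gene of the array (horizontal axis), with numbers naming the Mup genes. Central genes lie at or below 42.3%, and the 6 peripheral genes at 56.62% or above.

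Total counts per library ran from 47659122 to 56147667. Levels are given as CPM, counts scaled to a common library size, here the effective size after TMM scaling. These sizes ran from 46770282 to 58292741, so that 3 counts corresponded to between 0.0515 and 0.0641 CPM. The targeted gene Stk11 had 22.1, 14.4 and 11.4 CPM in KO 1 to 3 and 66.1, 64.2 and 69.7 CPM in WT 1 to 3. It fell by 2.06 ± 0.247 on the log2 scale (SE, edgeR adjusted p = 0.0167), and the groups did not overlap, although the adjusted p-value was 0.0607 to 0.104 without KO 2, KO 3, WT 2 or WT 3. The counts cover the whole gene and do not separate deleted from retained exons. A further difference between libraries is not in the labels. KO 1 and WT 1 had 42472 and 29243 counts of Xist, the RNA of the inactive X chromosome, and 6 and 3 counts over 4 Y-linked genes, whereas the other 4 libraries had at most 16 counts of Xist and 6146 to 8199 counts of the Y-linked genes. KO 1 and WT 1 are called Xist-positive here and the other 4 libraries Y-positive. Results are also given within these subsets, which were set by Xist and never by Mup counts. The defining markers of hepatocytes were present in every library, but their summed level, over 7 genes, was 26366 to 75609 CPM in KO and 88367 to 129772 CPM in WT, so it moved with the group. Most of this sum was Alb, with 10395 to 50549.7 CPM in KO and 57064 to 95626 CPM in WT. Of the 7 genes edgeR called 0 as lower and 1, Tat, as higher, with 3005 to 5971 CPM in KO and 1058 to 1190.3 CPM in WT. DESeq2 called 4 of the 7 as lower and 1 as higher, against 7% and 8.74% of all genes. Serpina1a had 3477 to 4676 CPM in KO and 3718 to 4058 CPM in WT. Markers of 5 other liver cell types were low throughout, from 0.509 to 222 CPM in KO and from 1.47 to 342 CPM in WT. Macrophage markers summed to 99.8 to 222 CPM in KO and 138 to 189 CPM in WT, and endothelial markers to 66.8 to 114 CPM and 140 to 196 CPM. In bulk tissue, fewer cells of a type and less RNA per cell cannot be told apart, and the part of these shifts in the Mup results was not tested.

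The family as a whole was most abundant in the 2 Y-positive WT libraries. Summed Mup RNA was 37994 and 47360.2 CPM in WT 2 and WT 3 but 5039 CPM in WT 1, and 5123, 2189.95 and 1592 CPM in KO 1 to 3. It took 3.62% and 4.65% of all counts in WT 2 and WT 3, 0.514% in WT 1, and 0.532%, 0.238% and 0.148% in KO 1 to 3. With at least 75018 Mup counts in a library, the exact 95% binomial interval of the lowest share ran only from 0.147% to 0.149%, which covers counting error only. KO 1 lay above WT 1, so the groups overlapped.

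Over all 6 libraries the mean of the family sum was 2968 ± 1889.96 CPM in KO and 30131 ± 22229 CPM in WT (SD, n = 3 each). On the log2 scale KO minus WT came to -3.34 ± 0.883 (SE), and the quasi-likelihood test of edgeR gave an adjusted p of 0.0779, which does not pass the threshold of 0.05. This call depended on the libraries and the tool: the adjusted p-value was 0.0301 without KO 1 and 0.0479 without WT 1, between 0.21 and 0.245 without any one of the other 4 libraries, and 0.000791 in DESeq2. Within the Y-positive libraries the family fell. The mean of WT 2 and WT 3 was 22.6 times that of KO 2 and KO 3, and the log2 fold change was -4.50 ± 0.414 (SE, n = 2 each, edgeR adjusted p = 0.00179). In the same libraries the hepatocyte marker sum was 26366 and 39206 CPM in KO against 100728 and 88367 CPM in WT. Of its 7 genes edgeR called 4 as lower and 1, Tat, as higher there, against 16.1% and 17.2% of all genes. Apoa1 had 1137 and 888 CPM against 6346 and 5994 CPM, and Ttr 1656 and 2089 CPM against 5058 and 5151 CPM. Tat had 3409 and 5971 CPM against 1165 and 1190.3 CPM, and Serpina1a 3477 and 4676 CPM against 4036 and 4058 CPM. The Xist-positive pair gave 5123 CPM in KO and 5039 CPM in WT, a log2 ratio of 0.02 with 1 library on each side and no replicate check. The difference between these 2 responses was itself tested with an interaction term, which was 4.52 ± 0.638 (SE, edgeR adjusted p = 0.0296). That test takes its spread from the Y-positive libraries and assumes that the lone libraries KO 1 and WT 1 vary like them.

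**Figure D2:**
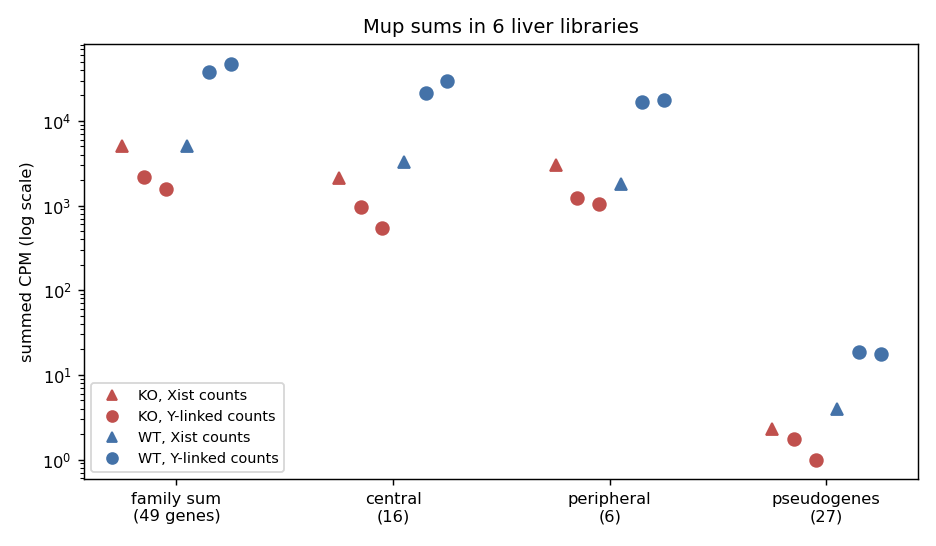
Summed CPM on a log scale (vertical axis) of all 49 Mup genes and of the central, peripheral and pseudogene groups, with 1 point per library, red for KO and blue for WT, triangles for Xist-positive libraries and circles for Y-positive ones. WT 2 and WT 3 stand above all other libraries in each sum, and for the family sum WT 1, at 5039 CPM, lies within the range of KO.

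Central and peripheral genes shared the large difference in the Y-positive libraries and parted in the Xist-positive pair. The central sum was 2123, 963 and 542 CPM in KO and 3258, 21208 and 29670 CPM in WT, so every KO library lay below every WT library. Its log2 fold change was -3.90 ± 0.910 (SE, edgeR adjusted p = 0.0639) over 6 libraries and -5.09 ± 0.477 (adjusted p = 0.00184) within the Y-positive libraries. The peripheral sum was 2997, 1225 and 1049 CPM in KO and 1777, 16767 and 17673 CPM in WT, and KO 1 lay above WT 1. Its log2 fold change was -2.78 ± 0.869 (SE, edgeR adjusted p = 0.109) over 6 libraries and -3.93 ± 0.305 (adjusted p = 0.00111) within the Y-positive libraries. In the Xist-positive pair the central ratio was -0.62 and the peripheral ratio 0.75 on the log2 scale. Pseudogenes together made up at most 0.0789% of the family's counts in any library, with 0.997 to 2.26 CPM in KO and 3.90 to 18.6 CPM in WT. Their log2 fold change was -3.01 ± 0.621 (SE, edgeR adjusted p = 0.0515), and within the Y-positive libraries they fell by 3.73 ± 0.256 (adjusted p = 0.000827). Mup-ps19 alone held 861 of the 965 pseudogene counts in WT 2 and 666 of the 830 in WT 3. Most of its stretches are those of Mup20, so the pseudogene sum still rests on the division of reads between Mup20 and Mup-ps19. In WT 1, however, Mup-ps19 held 17.3 of the 198 pseudogene counts, and Mup-ps16 and Mup-ps12 held 110 and 50.4. Mup-ps16 overlaps another transcript, as given below.

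Of the 49 members, 22 passed the filter on low counts, namely all 16 central genes, Mup3, Mup20 and Mup21 of the peripheral genes, and 3 pseudogenes. A gene high in WT alone could pass, so the filter favours such members, and their counts are a description. With edgeR 1 of the 22 fell, Mup13, and 0 rose, where 3.37% of all 14539 genes tested passed the threshold, 1.22% passed as lower and 2.15% as higher. Unadjusted p-values under 0.05 were found for 19 lower and 0 higher members, against 11.7% and 14.6% of all genes. DESeq2 called 16 of them as lower and 0 as higher, where it called 7% of all genes as lower and 8.74% as higher. With limma voom 0 passed, where 1.22% of all genes passed as lower and 1.75% as higher, and 13 were lower at an unadjusted p-value under 0.05, against 12.9% of all genes. The median log2 fold change of the 22 was -4.51, from -9.85 to -0.11, beside 0.01 over all genes tested. In 15 of the 22 every KO library lay below every WT library, a separation seen in 15.5% of all genes. Both KO libraries lay below both WT libraries among the Y-positive ones in 21 of the 22, against 35.4% of all genes. There 20 of these 22 fell and 1 rose, where 16.1% of genes fell and 17.2% rose.

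**Figure D3:**
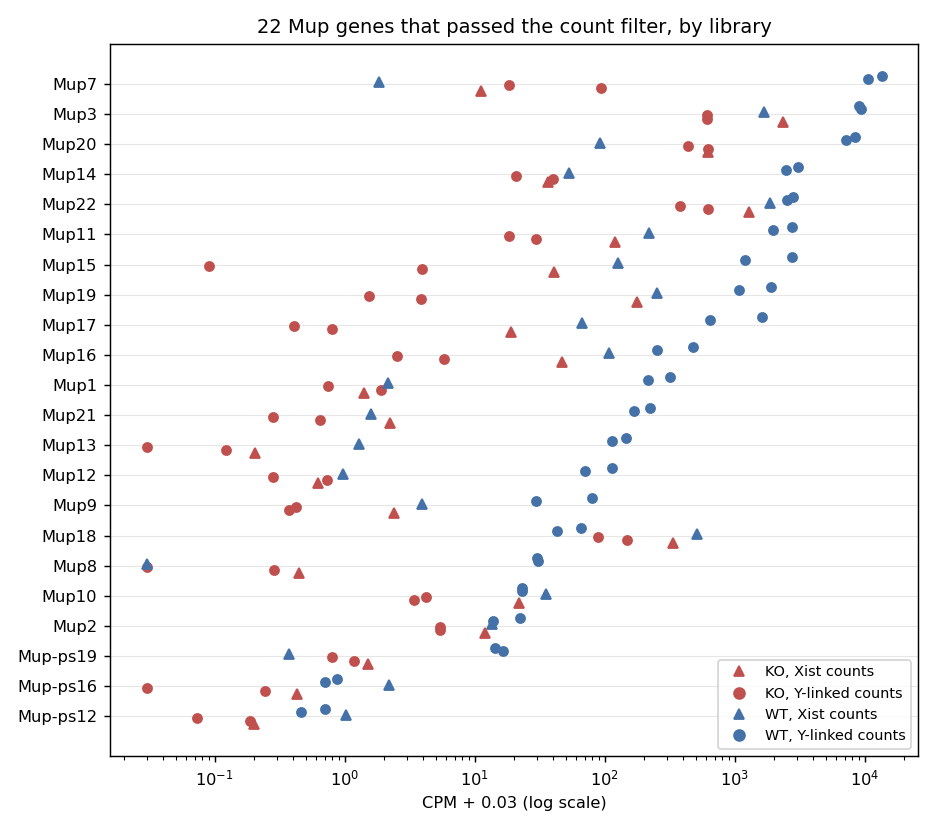
CPM plus 0.03 on a log scale (horizontal axis) of the 22 Mup genes that passed the filter, 1 row per gene and 1 point per library, coloured and shaped as in the plot of sums. In most rows WT 2 and WT 3 stand alone on the right, while for Mup18 they are the 2 lowest points.

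Mup20 encodes darcin, a non-volatile male pheromone that attracts females. It had 7204 and 8400.35 CPM in WT 2 and WT 3, 627, 618 and 433 CPM in KO 1 to 3 and only 92.7 CPM in WT 1. All 3 KO libraries were thus far below WT 2 and WT 3 and far above WT 1, and KO 1 was 6.77 times WT 1. Its log2 fold change was -3.23 ± 1.27 over 6 libraries (SE, edgeR adjusted p = 0.167) and -3.90 ± 0.316 in Y-positive ones (adjusted p = 0.00126), and the interaction was 6.65 (adjusted p = 0.0073). Mup3, the peripheral gene with the most counts in every library but KO 2, had 9389 and 9044 CPM in WT 2 and WT 3, 1682 CPM in WT 1, and 2368, 607 and 616 CPM in KO. KO 1 again lay above WT 1. In the Y-positive libraries it fell by 3.92 ± 0.265 on the log2 scale (SE, edgeR adjusted p = 0.000799). Mup21 ran from 169 and 223 CPM in WT 2 and WT 3 down to 1.57 CPM in WT 1, and it was at most 2.20 CPM in KO. Its KO values overlapped WT 1, and in the Y-positive libraries it fell by 8.78 ± 0.384 (edgeR adjusted p = 0.000328).

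The remaining peripheral genes were barely detected. Mup4, known for its expression in nasal tissue, had 0 counts in all 6 libraries, which allows at most 0.0641 CPM per library. Mup5, known from salivary glands, had 1 count in KO 1 and 0 elsewhere. Mup6 had 26 and 33 counts in WT 2 and WT 3 and at most 6 counts in the other libraries, and it did not pass the filter over 6 libraries.

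Among the central genes Mup7 reached the highest level in WT, and its counts rest on 19.15% of unique stretches. It had 10554 and 13499 CPM in WT 2 and WT 3, 1.80 CPM in WT 1, and 11.2, 93.9 and 18.5 CPM in KO 1 to 3. Every KO library lay above WT 1, and its change over 6 libraries, -7.60 ± 2.53, did not pass (SE, edgeR adjusted p = 0.123). Mup13 had 114 and 145 CPM in WT 2 and WT 3, 1.25 CPM in WT 1, and 0.175, 0.0922 and 0 CPM in KO, so every KO library lay below every WT library. Mup13 was called as lower over 6 libraries (edgeR adjusted p = 0.0469), with only 11.69% of its stretches unique. It had 10.2, 5.12 and 0 counts in KO and passed the filter through WT, so its fitted log2 fold change of -9.85 is no measure of size. The call was lost without KO 2, KO 3, WT 2 or WT 3 (adjusted p = 0.145 to 0.187), in limma voom (0.393) and with the replicate number as a block (0.0892). Mup1, which has been studied as a secreted regulator of glucose and lipid metabolism, is the central gene with the largest unique part. It had 214 and 318 CPM in WT 2 and WT 3, 2.12 CPM in WT 1, and 1.38, 1.87 and 0.715 CPM in KO. In the Y-positive libraries Mup1 fell by 7.66 ± 0.505 (SE, edgeR adjusted p = 0.000744), and over all 6 its adjusted p-value was 0.064.

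Several central genes were also expressed in WT 1, and there the libraries fell in another order. Mup11 had 1960.45 and 2767 CPM in WT 2 and WT 3 and 220.4 CPM in WT 1, against 119 CPM in KO 1 and 29.5 and 18.3 CPM in KO 2 and KO 3. Mup15, Mup16, Mup17 and Mup19 showed the same order, with WT 1 at 66.3 to 254 CPM, KO 1 at 18.9 to 178 CPM, and KO 2 and KO 3 at 0.0601 to 5.76 CPM. For these 5 genes KO 2 and KO 3 thus lay below KO 1 and below WT 1. In the Y-positive libraries the 5 log2 fold changes ran from -10.92 for Mup17 to -6.46 for Mup16, with edgeR adjusted p-values from 0.000583 to 0.00846. Mup10 differed in that WT 1, at 35.6 CPM, was above WT 2 and WT 3, at 23.0 and 23.3 CPM, while KO 1 had 21.9 CPM and KO 2 and KO 3 had 3.37 and 4.16 CPM. Mup22 had 2507 and 2795 CPM in WT 2 and WT 3, 1860 CPM in WT 1 and 1296, 625 and 380 CPM in KO. Every KO library of Mup22 lay below every WT library, and all of its counts depend on the division of reads.

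Mup8, Mup9, Mup12 and Mup14 were lower in WT 1 and in all KO libraries than in WT 2 and WT 3. Mup14 had 2458 and 3045 CPM in WT 2 and WT 3, 52.8 CPM in WT 1 and 20.6 to 39.9 CPM in KO, and Mup12 had 70.2 and 114 CPM, 0.933 CPM and 0.252 to 0.697 CPM. Both fell in the Y-positive libraries, with log2 fold changes of -6.51 ± 0.441 and -7.55 ± 0.461 (SE, edgeR adjusted p = 0.000799 and 0.000616). Mup9 had 29.5 and 79.7 CPM in WT 2 and WT 3, 3.93 CPM in WT 1 and 0.345 to 2.37 CPM in KO. Mup8 had 30.5 and 30.0 CPM in WT 2 and WT 3, 0 in WT 1 and at most 0.418 CPM in KO. Mup2 differed less, with 13.5, 13.7 and 22.3 CPM in WT 1 to 3 and 12.0, 5.42 and 5.39 CPM in KO 1 to 3.

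The pseudogenes with enough counts to test fell into different patterns. Mup-ps19 followed Mup20, with which it shares most of its stretches, at 16.6 and 14.2 CPM in WT 2 and WT 3, 0.340 CPM in WT 1 and 0.768 to 1.47 CPM in KO. Mup-ps12 and Mup-ps16 were highest in WT 1, at 0.993 and 2.18 CPM, and every KO library of both lay below every WT library. Mup-ps16 overlaps Gm13775, a processed transcript on the same strand. Gm13775 had 229, 78.9 and 10 counts in KO 1 to 3 and 1211, 521 and 608 counts in WT 1 to 3. Whether its reads make up the Mup-ps16 counts was not tested. Another 12 members had counts but did not pass the filter, 10 of them pseudogenes with at most 21.8 counts in a library, and 15 members had 0 counts in all 6 libraries.

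Mup18 was the only member that rose in the Y-positive libraries. It had 42.7 and 65.2 CPM in WT 2 and WT 3 but 149.5 and 88.7 CPM in KO 2 and KO 3, and it was highest in WT 1, at 512 CPM, and KO 1, at 337 CPM. The log2 fold change was 1.14 ± 0.309 in the Y-positive libraries (SE, n = 2 each, edgeR adjusted p = 0.0395), -0.60 in the Xist-positive pair and -0.11 ± 0.964 over all 6 libraries (adjusted p = 0.951). The interaction of -1.75 did not pass (adjusted p = 0.168). Only 12.51% of its stretches are unique, so this direction cannot be told apart from the division of reads among near-identical copies.

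**Figure D4:**
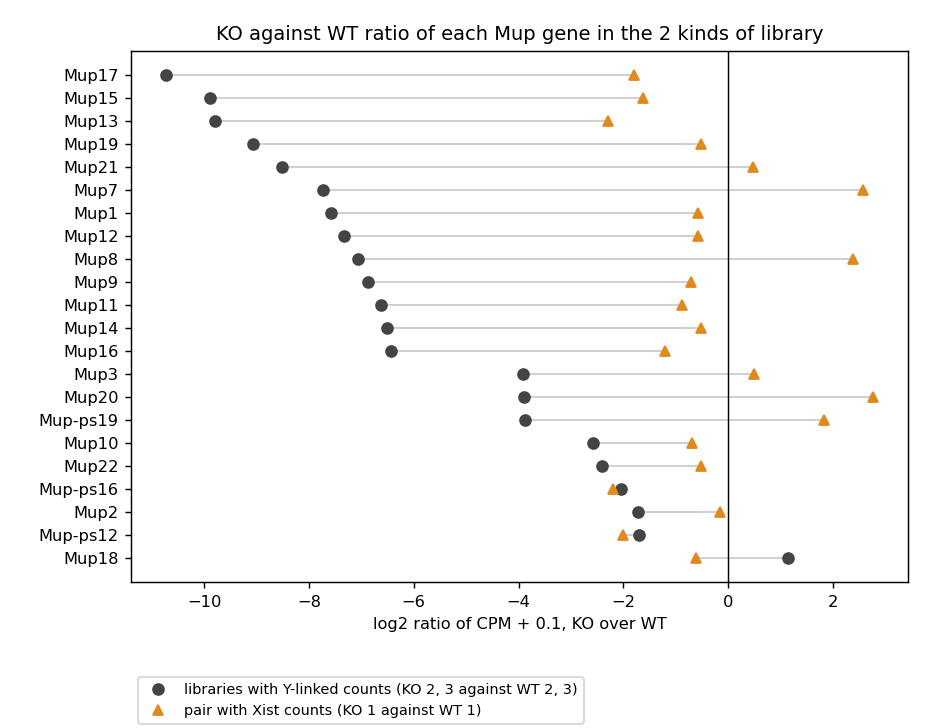
Log2 ratio of CPM plus 0.1, KO over WT (horizontal axis), of the 22 Mup genes that passed the filter, with circles for the means of the Y-positive libraries and triangles for the single Xist-positive pair. The circles run from -10.72 for Mup17 to 1.14 for Mup18, and the triangles from -2.30 to 2.76.

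In the Xist-positive pair 16 of the 22 members were lower in KO 1 than in WT 1 and 6 were higher. All 3 peripheral genes were among the higher and 14 of the 16 central genes among the lower. These are signs from a single library on each side, and the central genes share most of their stretches, so they are not separate observations. The median log2 ratio was -0.58, beside -0.02 over all genes tested, and it was -6.56 beside 0.01 in the Y-positive libraries. At least 2-fold lower in KO 1 than in WT 1 were 6 of the 22 members, and at least 2-fold higher were 4, where 2.77% and 5.13% of all genes passed these folds. The 4 higher members were Mup7, Mup8, Mup20 and Mup-ps19. Mup8 had 24.4 counts in KO 1 and 0 in WT 1, and the stretches of Mup-ps19 are mostly those of Mup20. The largest ratio was that of Mup20, 2.76. The lowest was that of Mup13, -2.30, from 10.2 counts in KO 1 and 63.5 in WT 1. The interaction passed the threshold for 16 of the 22 members, all 16 with a positive term, against 2.9% of all genes. At an unadjusted p-value under 0.05 the term was positive in 19 members, against 10.1% of all genes.

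The make-up of the family's RNA differed as well as its amount. Per kilobase of annotated exon, Mup7, Mup3 and Mup20 had the highest levels in WT 2 and WT 3, between 7763 and 13067 CPM per kilobase, and no order among these 3 is drawn, since Mup3 and Mup20 change places between the 2 libraries. WT 1 was led by Mup22, Mup3 and Mup18, at 2159.86, 1575 and 550.4 CPM per kilobase. The KO libraries were led by Mup3, Mup20 and Mup22, which together gave 83.8% to 89.8% of their Mup counts. Mup7 made up 27.8% and 28.5% of Mup counts in WT 2 and WT 3 but at most 4.29% in any KO library and 0.0357% in WT 1. Mup18 made up 5.57% to 6.83% in KO and 10.2% in WT 1, against 0.112% and 0.138% in WT 2 and WT 3.

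Central genes made up 41.4%, 44.0% and 34.0% of Mup counts in KO 1 to 3 and 64.7%, 55.8% and 62.6% in WT 1 to 3. This share was 39.8% ± 5.18 in KO and 61.0% ± 4.64 in WT (SD, n = 3 each), and the groups did not overlap. Unlike the family sum, it was lower in KO than in WT in both kinds of library, but the Xist-positive kind had only 1 library per group. No stretch of Mup3, Mup20 or Mup21 is shared with a central gene. The two-sided exact permutation test gave p = 0.1, the smallest value that 3 against 3 samples allow, and 0.4 after adjustment over the 8 shares compared. The share of the family in all counts gave an exact permutation p of 0.2.

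**Figure D5:**
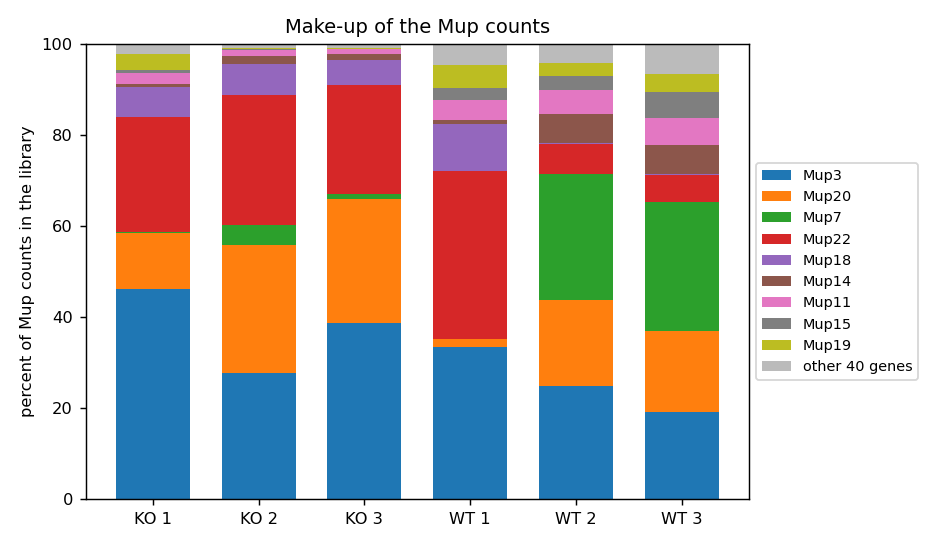
Percent of each library's Mup counts (vertical axis) that fell to 9 named Mup genes and to the other 40 members, in 6 stacked bars. Mup7 takes 27.8% and 28.5% in WT 2 and WT 3 and at most 4.29% elsewhere, and Mup3, Mup20 and Mup22 fill most of the KO bars.

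Genes of the growth hormone route and of sex-biased expression were read from the same comparison. The counts below stand beside 11.7% of all genes lower and 14.6% higher at an unadjusted p-value under 0.05, 7% and 8.74% called by DESeq2, 1.22% and 1.75% called by limma voom, and 16.1% and 17.2% called in the Y-positive libraries. The list of growth hormone signalling, STAT5 and hormone receptor genes had 16 of 17 members tested, of which 0 passed in edgeR over 6 libraries, with 8 lower and 1 higher at an unadjusted p-value under 0.05. DESeq2 called 4 lower and 1 higher, and limma voom 0. Within the Y-positive libraries 10 fell and 3 rose, namely Socs3, Esr1 and Cish. Ghr, the growth hormone receptor, had 423, 151 and 290 CPM in KO and 448, 624 and 609 CPM in WT, with no overlap and an edgeR adjusted p-value of 0.163. Stat5b, the STAT5 form most tied to male liver expression, had 81.9, 45.1 and 51.1 CPM in KO and 83.2, 86.9 and 80.3 CPM in WT (adjusted p = 0.226). Socs2, a STAT5 target that dampens growth hormone signalling, had 10.6, 5.40 and 8.19 CPM in KO and 47.6, 16.4 and 23.5 CPM in WT (adjusted p = 0.064). These adjusted p-values are over 6 libraries. Within the Y-positive libraries Ghr fell by 1.49 ± 0.321, Stat5b by 0.80 ± 0.117 and Socs2 by 1.56 ± 0.264 (SE, edgeR adjusted p = 0.0204, 0.00654 and 0.0101). Cish had 6.76, 14.4 and 12.0 CPM in KO and 16.4, 5.09 and 4.70 CPM in WT. In the Y-positive libraries it went the other way and rose by 1.43 ± 0.153 (SE, edgeR adjusted p = 0.00274). Over 6 libraries Cish did not pass (edgeR adjusted p = 0.712).

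Among 20 transcription factors linked to sex-biased liver genes or to Mup genes, edgeR called 1, Ppargc1a, as higher and 0 as lower, with 7 lower and 1 higher at an unadjusted p-value under 0.05. DESeq2 called 6 lower and 1 higher and limma voom 0 lower and 1 higher, and within the Y-positive libraries 7 fell and 5 rose. Ppargc1a, a coactivator of fasting metabolism, rose by 2.98 ± 0.565 on the log2 scale (SE, edgeR adjusted p = 0.0446). Bcl6, a repressor that is higher in male liver, had 17.4 and 34.9 CPM in WT 2 and WT 3, 4.24 CPM in WT 1 and 3.54 to 6.04 CPM in KO. Cux2, a female-enriched factor, had 0.116 and 0.428 CPM in WT 2 and WT 3, 10.9 CPM in WT 1 and 8.11, 18.7 and 28.2 CPM in KO. Both factors thus placed KO 2 and KO 3 with the Xist-positive libraries. Within the Y-positive libraries Bcl6 fell by 2.68 ± 0.362 and Cux2 rose by 6.45 ± 0.467 (SE, edgeR adjusted p = 0.00528 and 0.000941), and over 6 libraries neither passed (0.128 and 0.331). Zhx2, a transcription factor genetically linked to Mup genes, had 12.4 to 14.98 CPM in KO and 12.6 to 17.5 CPM in WT (edgeR adjusted p = 0.417). Onecut1, an activator in the growth hormone network, had 12.8 to 14.8 CPM in KO and 13.9 to 27.3 CPM in WT (adjusted p = 0.271).

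Male-biased liver genes outside the family also fell in the Y-positive libraries. Of 16 tested, edgeR called 0 over 6 libraries, with 12 lower and 0 higher at an unadjusted p-value under 0.05, while DESeq2 called 11 as lower and limma voom 0. Within the Y-positive libraries 15 fell and 0 rose, with a median log2 ratio of -5.57, and in the Xist-positive pair the median was 0.91. Of 18 female-biased genes 10 were tested and 0 passed in edgeR over 6 libraries, with 2 higher at an unadjusted p-value under 0.05, 2 called as higher by DESeq2 and 1 by limma voom, and 8 rose within the Y-positive libraries. Cyp17a1, a steroid-synthesis enzyme, had 2.24 and 2.59 CPM in WT 2 and WT 3, 69.3 CPM in WT 1 and 520, 925 and 1236 CPM in KO.

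Other lipocalins differed little at the median. Of 13 genes 9 were tested and edgeR called 0, with 2 lower at an unadjusted p-value under 0.05, 1 called as lower by DESeq2 and 0 by limma voom, and a median log2 fold change of -0.15. Orm1, an acute phase lipocalin, had 288, 224 and 167 CPM in KO and 309, 419 and 443 CPM in WT (edgeR adjusted p = 0.114 over 6 libraries). Within the Y-positive libraries 2 lipocalins fell and 1 rose, with a median log2 ratio of -0.22. Orm1 fell there by 1.15 ± 0.189 (SE, edgeR adjusted p = 0.00928). Among 18 abundant secreted liver proteins edgeR also called 0, with 6 lower and 2 higher at an unadjusted p-value under 0.05, 8 lower and 1 higher by DESeq2 and 1 lower by limma voom, with a median log2 fold change of -0.62 beside -4.51 for the 22 Mup genes. Within the Y-positive libraries 6 of the 18 fell and 2 rose, with a median log2 ratio of -0.68 beside -6.56 for the Mup genes. Both KO libraries lay below both WT libraries there in 13 and above in 3, where 35.4% of all genes lay below.

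The genes outside the family whose course over the 6 libraries was closest to that of the family sum were Acsm2, Cyp2u1, AC121973.1, C8a and Serpina9. Closeness was the root-mean-square difference between log2 CPM values centred on their means, which was 0.342 to 0.538 for these 5 and had a median of 1.91 over 14517 genes. C8a, which encodes a chain of complement component 8, had 878 and 890.1 CPM in WT 2 and WT 3, 173 CPM in WT 1 and 260, 51.6 and 73.7 CPM in KO. Cyp2u1, a fatty acid hydroxylase of the P450 family, had 33.7 and 38.8 CPM in WT 2 and WT 3, 5.36 CPM in WT 1 and 2.50 to 3.74 CPM in KO. As for the Mup sum, WT 2 and WT 3 stood apart from the other 4 libraries in both genes, which follows from how these genes were chosen. Acsm2, AC121973.1 and Serpina9 were low, with at most 3.40, 3.98 and 1.88 CPM in any library.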

How the data were processed

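The authors deposited 1 table of expected counts, estimated reads per gene with no scaling, for 55450 genes in 6 libraries. The submitters' processing notes name bcl2fastq 2.17, cutadapt 1.18, STAR 2.7.0f and RSEM 1.3.1 and the build mm9. All 55450 versioned gene identifiers are in GENCODE M21 (GRCm38), a later build than mm9, so positions come from that annotation and the build used for the counts is uncertain. The use of strand is not given in the sources used here. Between 4.93% and 5.47% of values per library were not whole. Each column was matched to 1 sample by its description, and the replicate numbers come from the titles. Samples of 1 group are separate mice per the labels.

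Expected counts were rounded to whole numbers, filtered by filterByExpr, scaled by TMM and tested with edgeR 4.0.16 (quasi-likelihood, group as only term, R 4.3.3). P-values were adjusted by Benjamini-Hochberg over all features. For sums, the member rows were replaced by their sum before the fit. SE is the log2 fold change over the square root of F. Alternatives were other scalings, no filter, DESeq2 1.42.0, limma 3.58.1 voom, omitted libraries, an Xist term and a replicate block. The named genes were all members that passed the filter, the sums, Stk11, 6 factors and up to 5 genes per list by p-value, and the 5 closest genes. Also named were the 3 genes of the growth hormone list that rose in the Y-positive libraries. Members and lists were chosen with earlier results of these data known. The 5 genes outside the rule that share 76-base stretches with members had counts of at most 0.474% of the family's.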

Additional observations from a re-analysis of the deposited data

Results flagged for a closer look

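The difference between KO and WT was not the same among the 4 Y-positive libraries as between the Xist-positive KO 1 and WT 1, by edgeR's test of the interaction term with adjustment over all features. The term, on the log2 scale, was 4.52 for the family sum, 4.46 for the central sum, 4.68 for the peripheral sum and 2.94 for the pseudogene sum, with adjusted p-values of 0.0296, 0.0435, 0.0145 and 0.0343. Each sum was lower in both Y-positive KO libraries than in both Y-positive WT libraries.

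Of single genes 16 passed, with adjusted p-values from 0.00508 to 0.0396. Among peripheral genes the term was 6.65 for Mup20, 4.41 for Mup3 and 9.27 for Mup21. Among central genes it was 7.04 for Mup1, 10.39 for Mup7, 6.46 for Mup9, 1.92 for Mup10, 5.74 for Mup11, 6.88 for Mup12, 8.45 for Mup13 and 5.98 for Mup14. It was 5.24 for Mup16, 9.11 for Mup17 and 8.61 for Mup19. The term of 15.20 for Mup8 rests on 0 counts in WT 1 and KO 3 and is no measure of size. Nor is that of Mup13, which had 10.2, 5.12 and 0 counts in KO 1 to 3. For the pseudogene Mup-ps19 it was 6.13. Counts of single copies rest on the division of shared reads. So does the pseudogene sum, which is mostly Mup-ps19 in WT 2 and WT 3. Only 1 library per group was Xist-positive, and it is assumed to vary like the others.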

How the results depend on the processing

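The family sum kept its direction under every alternative run, with edgeR unless named. It passed the threshold without a count filter (-3.35), in DESeq2 (-3.36) and in the Y-positive libraries (-4.50), and leaving out single libraries gave -3.999 to -2.86. The same alternatives gave -3.91, -3.91 and -5.09 for the central sum (-4.59 to -3.33 without single libraries) and -3.02, -3.02 and -3.73 for the pseudogene sum (-3.45 to -2.70). The peripheral sum passed in DESeq2 (-2.79) and in the Y-positive libraries (-3.93), with -3.41 to -2.40 without single libraries. Without KO 1 all 4 sums passed, and without WT 1 all but the peripheral sum passed. Stk11 ran from -2.37 to -1.87 without single libraries, and its adjusted p-value was above 0.05 without KO 2, KO 3, WT 2 or WT 3 (0.0607 to 0.104). The interaction of the family sum passed in all 5 alternatives run.

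The count of Mup genes called as lower was 1. It was 7 without a filter, 16 in DESeq2, 0 in limma voom, 0 to 16 without single libraries (16 without KO 1, 9 without WT 1), 21 in the Y-positive libraries (Mup6, with 6 and 1 counts in KO, among them), 3 with an Xist term and 0 with the replicate block. The count called as higher was 1 in the Y-positive libraries and 0 to 0 without single libraries. Mup18 ran from -0.80 to 1.83 without single libraries and changed sign to 0.54 in limma voom, 0.05 without KO 2, 0.24 without KO 3, 1.83 without WT 1, 1.14 in the Y-positive libraries, 0.57 with the Xist term and 0.54 with the replicate block, and the cause was not tested. The other 21 Mup genes stayed below 0 in all 315 values.

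Over all genes, scaling by library size alone moved the share of higher genes among calls from 63.9% to 74.4%, and with it 1 Mup gene was called. Calls over all genes were 177 lower and 313 higher, against 26 and 79 with the replicate block, 1018 and 1270 in DESeq2, 286 and 485 without a filter, 725 and 779 with the Xist term and 2340 and 2507 in the Y-positive libraries. Without single libraries there were 1 and 5 (WT 2), 3 and 17 (WT 3), 4 and 31 (KO 3), 14 and 72 (KO 2), 110 and 152 (WT 1) and 2101 and 2372 (KO 1). The replicate block gave -3.24 for the family sum (adjusted p = 0.186). Same-numbered libraries had deviations from their group means that correlated at 0.177, 0.0428 and 0.0733 across genes, so the numbers were not taken as pairs, and KO 2 and KO 3 correlated best with another number. Read sharing limits the central genes and the pseudogene sum, and Mup4, Mup5 and Mup6 are limited by low counts.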
